A study of Mus musculus with 6 samples.

Results

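The machinery that carries proteins into mitochondria and trims them there was followed in mouse KP cells in which Npm1 (nucleophosmin, an abundant nucleolar protein) was depleted with inducible short hairpin RNAs. Its 38 genes were taken from the 48526 gene identifiers of the count tables. Of these, 26 carry the symbol prefix Tomm or Timm and 12 were listed by name: the SAM complex and metaxins, the intermembrane space oxidation pair Chchd4 and Gfer, the subunits and co-chaperones of the import motor, and both subunits of the presequence peptidase. The rule goes by symbol and name and holds no measured value. A filter on low counts left 35 of the 38 genes for testing, among 14531 genes in all.

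RNA sequencing covered 3 stable lines, named 3, 4 and 5 here after their hairpins shNpm1-3 (N3), shNpm1-4 (N4) and shNpm1-5 (N5). In each, a pLKO.1-Tet on vector carries an Npm1 hairpin that doxycycline switches on, and puromycin selected the cells. The knockdown group is the 3 lines given 100 ng/ml doxycycline, and the control group is the same 3 lines without it. Every library of both groups therefore carries a hairpin vector, and the sources used here give neither the length of treatment nor the genotype behind the name KP. No library had doxycycline without a hairpin, so the effect of the knockdown and that of the drug, a tetracycline known to act on bacterial and mitochondrial ribosomes, cannot be told apart. Each line gave 1 library per condition and the lines stand in for replicates, so p-values measure the spread between these libraries. The tables held 24391198 to 27341036 counts in genes with doxycycline and 25270163 to 26756552 without. In the check of the knockdown, Npm1 stood at 67.8, 245 and 400 CPM (read counts scaled to library size with edgeR's TMM factors) in the treated lines 3, 4 and 5, against 2002, 1851 and 1924 CPM in the untreated lines. Treated cells thus kept 3.39%, 13.2% and 20.8% of the untreated Npm1 level in lines 3, 4 and 5, and the fall passed the test (log2 fold change -3.02, SE 0.49, adjusted p = 0.011 by edgeR).

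Nearly all mitochondrial proteins are made in the cytosol and imported. Precursors are met by receptors of the TOM complex (Tomm20, Tomm22, Tomm70a) and cross the outer membrane through its channel, Tomm40, which small subunits hold together. From there the SAM complex inserts barrel proteins into the outer membrane, the oxidoreductase Chchd4 traps cysteine-rich proteins in the intermembrane space, and small TIM chaperones escort carrier proteins to the TIM22 complex. Precursors with a cleavable presequence pass TIM23 instead, are pulled in by a motor built around the matrix chaperone Hspa9, and lose the presequence to a peptidase made of Pmpca and Pmpcb.

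Promoters are shown here because the genes of this machinery lie on many chromosomes and have no common locus. The start of each gene is thus a place where they can be compared. Timm9 and Tomm20l are neighbours that overlap on chromosome 12, with 1.14% of the exonic bases of Timm9 shared. RefSeq promoter windows (GRCm38.p6, 250 bases before to 50 after the annotated start) were matched for 34 of the 38 genes, with Tomm40l, Tomm7, Timm21 and Grpel2 unmatched. Each was searched on both strands for 3 motifs, which do not contain one another: GCGCATGC, the core of the motif of nuclear respiratory factor 1 (NRF1), CCGGAAGT, bound by ETS factors such as GABP, and the E-box CACGTG, which reads the same on both strands. The ETS letters occurred in 9 of the 34 windows (26.5%), against 4.31% of all 27025 genes with a window. An E-box occurred in 5 windows (14.7%, against 8.09% of all genes) and the NRF1 core in 2 (5.88%, against 3.05%). At least 1 of the 3 was present in 15 windows (44.1%, against 14.3% of all genes). The 27025 genes were not limited to those expressed in these cells, so the shares are no like-for-like comparison. Among the 34 windows are those of the untested Tomm6, Tomm20l (E-box) and Timm8a2 (ETS). The 4 windows printed belong to the motif-bearing genes with the smallest p-values for doxycycline, and capitals mark the motif.
Timm9, chr12:71136626-71136925, minus strand, 2 E-boxes starting 58 bases and 1 base before the gene's start: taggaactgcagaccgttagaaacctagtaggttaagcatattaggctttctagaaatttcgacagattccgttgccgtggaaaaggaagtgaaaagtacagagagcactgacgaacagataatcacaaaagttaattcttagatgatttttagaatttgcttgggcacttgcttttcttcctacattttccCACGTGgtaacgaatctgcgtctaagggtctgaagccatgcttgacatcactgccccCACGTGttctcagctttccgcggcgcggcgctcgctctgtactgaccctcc
Pmpcb, chr5:21736910-21737209, plus strand, an ETS motif starting 16 bases before the start: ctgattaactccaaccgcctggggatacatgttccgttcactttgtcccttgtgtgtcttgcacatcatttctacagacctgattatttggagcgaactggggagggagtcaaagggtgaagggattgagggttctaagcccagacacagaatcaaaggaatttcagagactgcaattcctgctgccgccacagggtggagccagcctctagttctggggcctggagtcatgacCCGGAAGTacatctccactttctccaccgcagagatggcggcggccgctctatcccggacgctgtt
Grpel1, chr5:36464935-36465234, plus strand, an NRF1 core starting 36 bases before the start: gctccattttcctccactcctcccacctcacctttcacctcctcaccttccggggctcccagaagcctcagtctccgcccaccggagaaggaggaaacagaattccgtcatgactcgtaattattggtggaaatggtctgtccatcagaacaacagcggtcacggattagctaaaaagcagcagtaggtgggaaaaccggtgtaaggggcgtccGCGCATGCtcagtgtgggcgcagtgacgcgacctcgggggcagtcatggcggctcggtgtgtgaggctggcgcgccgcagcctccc
Timm10b, chr7:105640195-105640494, plus strand, an ETS motif on the opposite strand starting at base 36 after the start: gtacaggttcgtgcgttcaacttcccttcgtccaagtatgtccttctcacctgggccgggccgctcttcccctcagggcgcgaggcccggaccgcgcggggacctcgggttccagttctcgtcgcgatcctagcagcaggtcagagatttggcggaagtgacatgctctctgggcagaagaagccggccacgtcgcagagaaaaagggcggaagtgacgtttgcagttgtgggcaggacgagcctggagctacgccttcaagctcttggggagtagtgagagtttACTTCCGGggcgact
The letters in these windows are descriptions and not measured binding. Timm17a, Pam16 and Tomm5, whose p-values were among the smallest, had none of the 3 motifs in their windows.

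Expression of the machinery in the treated cells lay slightly above that in the untreated cells across most genes, and no single gene passed the test. The 35 tested genes had a median log2 fold change of 0.23 (fold 1.17), with quartiles of 0.08 and 0.33 and a range of -0.14 to 0.56, while the median over all genes tested was 0.00. Without the treated library of line 3 the median of the import genes was 0.13, and without both libraries of line 3 it was 0.14. Of the 35, 31 had a value above 0 (88.6%), against 50.4% of all genes. With edgeR's quasi-likelihood test and Benjamini-Hochberg adjustment over all genes, 0 of the 35 passed 0.05, against a background of 2.28% (332 of 14531 genes, with 0.963% higher and 1.32% lower), and the smallest adjusted p was 0.133. DESeq2 and limma-voom also called 0 of them, where they called 4.95% and 2.33% of all genes. At an unadjusted p under 0.05, 7 genes were higher and 0 lower, where 8.33% of all genes were higher and 7.96% lower. These 7 were Tomm22, Tomm5, Timm8b, Timm9, Timm17a, Pam16 and Pmpcb.

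**Figure D1:**
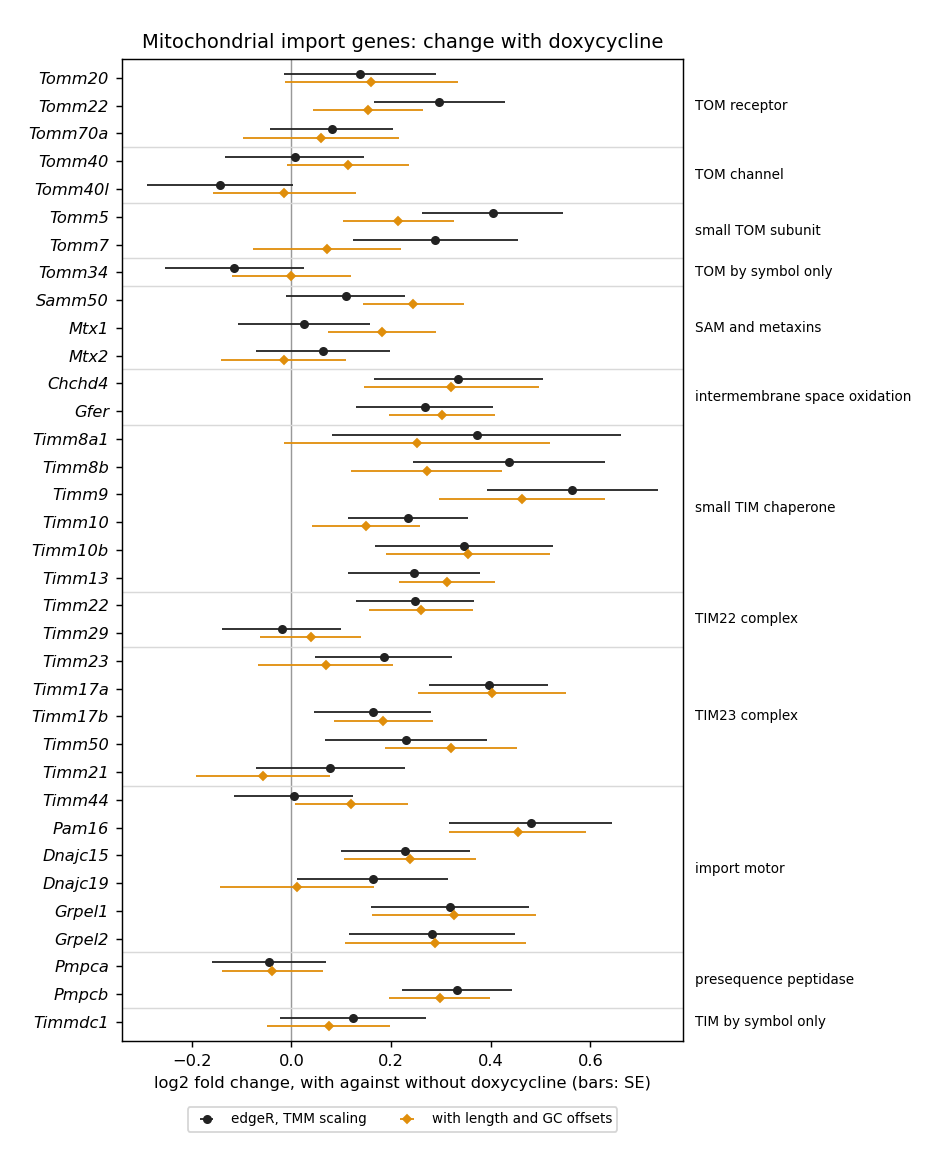
Log2 fold change with against without doxycycline (horizontal axis, bars SE) of the 35 tested import genes, grouped by role from the outer membrane to the matrix, from the fit with TMM scaling (black) and with offsets for transcript length and GC content (orange). Most black points lie between 0 and 0.56, with Timm9 farthest right and Tomm40l, Tomm34, Timm29 and Pmpca left of 0.

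The summed level of the 35 genes was 4029, 3168 and 3496 CPM in the treated lines 3, 4 and 5, against 3088, 2912 and 3144 CPM in the untreated lines. The treated libraries of lines 3 and 4 thus give the highest and the lowest treated sums, and all 3 lie above the untreated range. Between the groups, 13 of the 35 genes did not overlap with the treated libraries higher, and 0 with the treated libraries lower, where 11.3% and 11.2% of all genes did so. Scaled by total counts alone, 19 genes lay higher without overlap (12% of all genes) and 0 lower (8.97%), with 12 genes in both sets. Counts behind these values ran from 153 for Timm8a1 to 10936 for Tomm20 in a library.

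At the outer membrane, the 3 receptors had positive fold changes, and the central receptor Tomm22, which hands precursors to the channel, had the smallest p of them. It stood at 325, 264 and 268 CPM with doxycycline in lines 3, 4 and 5, against 240, 222 and 236 CPM without. All 3 treated libraries were above all untreated ones, with a log2 fold change of 0.30 (SE 0.13, adjusted p = 0.298 by edgeR). Line 3 was highest under TMM, but total counts gave 291, 292 and 278 CPM in treated lines 3, 4 and 5. The presequence receptor Tomm20, the gene of most counts in the group, had 0.14 (SE 0.15), and the chaperone-docking receptor Tomm70a had 0.08 (SE 0.12), both with overlapping groups.

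The channel gene Tomm40 showed no shared direction. Its level was 76.3, 63.3 and 74.1 CPM in the treated lines 3, 4 and 5, against 60.5, 73.5 and 78.8 CPM in the untreated lines. The treated library was the higher one in line 3 and the lower one in lines 4 and 5, for a log2 fold change of 0.01 (SE 0.14). Its relative Tomm40l was at 16, 14.3 and 15.9 CPM with doxycycline, against 18.7, 16.7 and 15.6 CPM without (log2 fold change -0.14, SE 0.15, adjusted p = 0.691 by edgeR). These groups overlapped, and 64.3% of the exonic bases of Tomm40l are shared with the neighbouring gene Nr1i3, so that its counts are uncertain.

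The small TOM subunits, which keep the channel complex assembled, were among the members with higher treated values. Tomm5 was at 251, 185 and 222 CPM in treated lines 3, 4 and 5, against 169, 153 and 175 CPM in untreated lines. The groups did not overlap (log2 fold change 0.40, SE 0.14, adjusted p = 0.191 by edgeR). Tomm7 was at 245, 155 and 195 CPM with doxycycline, against 159, 154 and 174 CPM without. Here line 4 had nearly the same level in both conditions and the groups overlapped (0.29, SE 0.17). The log2 fold change of Tomm7 was 0.11 without the treated library of line 3 and 0.44 without that of line 4. Tomm6 had 0, 3 and 0 counts with doxycycline and 0, 1 and 0 without, and 84.2% of its exonic bases are shared with other annotated genes. Among the remaining genes with a Tomm prefix, the cytosolic co-chaperone Tomm34 was at 26.7, 23.4 and 27.3 CPM with doxycycline, against 24.6, 29.0 and 30.2 CPM without (-0.11, SE 0.14), with overlap. Tomm20l had 1 count in a single untreated library and 0 in the others.

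In the SAM complex, the barrel insertase Samm50 stood at 98.3, 104 and 97.7 CPM in treated lines 3, 4 and 5, against 83.2, 95.8 and 99 CPM in untreated lines. The groups overlapped, with a log2 fold change of 0.11 (SE 0.12, adjusted p = 0.715 by edgeR). Of the metaxins, outer membrane partners of Samm50, Mtx1 was at 40.3, 33.1 and 37.5 CPM with doxycycline, against 33.2, 37.6 and 38.1 CPM without. As with Tomm40, the treated library was the higher one in line 3 and the lower one in lines 4 and 5 (0.02, SE 0.13), and 30.1% of its exonic bases are shared with Gm43737 and Thbs3. Mtx2 had a log2 fold change of 0.06 (SE 0.13).

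The oxidation pathway of the intermembrane space had higher treated values in every line. Chchd4, the oxidoreductase that folds incoming cysteine-rich proteins, was at 127, 81.6 and 116 CPM with doxycycline in lines 3, 4 and 5, against 91.1, 76.5 and 89.8 CPM without. The treated library of line 4 lay inside the untreated range, so the groups overlapped (log2 fold change 0.34, SE 0.17, adjusted p = 0.362 by edgeR). It was 0.21 without the treated library of line 3 and 0.50 without that of line 4. Gfer, which reoxidises Chchd4, had 0.27 (SE 0.14) and groups that did not overlap.

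The small TIM chaperones, substrates of that oxidation pathway, held 5 of the 13 genes without overlap, out of 6 tested, where 11.3% of all genes were higher without overlap. Timm9, which builds a ring with Timm10, had the highest fold change of all 35 genes, at 45.4, 31.7 and 48.5 CPM in treated lines 3, 4 and 5, against 30.5, 25.5 and 28.9 CPM in untreated lines. Its lowest treated library, line 4, was just above the highest untreated one (log2 fold change 0.56, SE 0.17, adjusted p = 0.138 by edgeR). Timm9 passed the test when the treated library of line 4 was left out (0.73, adjusted p = 0.0276, where 2.11% of all genes passed). It also passed with no filter on low counts (0.55, adjusted p = 0.0294, where 3.9% of 27007 genes passed), and in no other alternative tried.

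Timm8b, a partner of Timm13 in the other ring, was at 254, 158 and 150 CPM with doxycycline, against 146, 127 and 143 CPM without (0.44, SE 0.19, adjusted p = 0.298 by edgeR). The treated libraries were all higher, and line 3 stood far above lines 4 and 5. Without the treated library of line 3 the log2 fold change of Timm8b was 0.16. Timm13 was at 157, 120 and 132 CPM with doxycycline, against 112, 114 and 119 CPM without. Again the groups did not overlap and line 3 was highest (0.25, SE 0.13, and 0.14 without that treated library). Timm10b, the form that docks the small TIM ring on TIM22, was the lowest of the tested genes per length, at 10.5, 9.12 and 9.15 CPM with doxycycline, against 7.32, 6.78 and 8.52 CPM without. Every treated library was above every untreated one (0.35, SE 0.18, adjusted p = 0.373 by edgeR), and 22.1% of its exonic bases are shared with Arfip2, Gm22504 and Gm45799. Timm10 had 0.23 (SE 0.12) without overlap, and Timm8a1 had 0.37 (SE 0.29) with overlap, since its treated value was high in line 3 only, at 13 CPM with doxycycline against 7.12 CPM without. Timm8a2 had 0 counts in all 6 libraries.

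**Figure D2:**
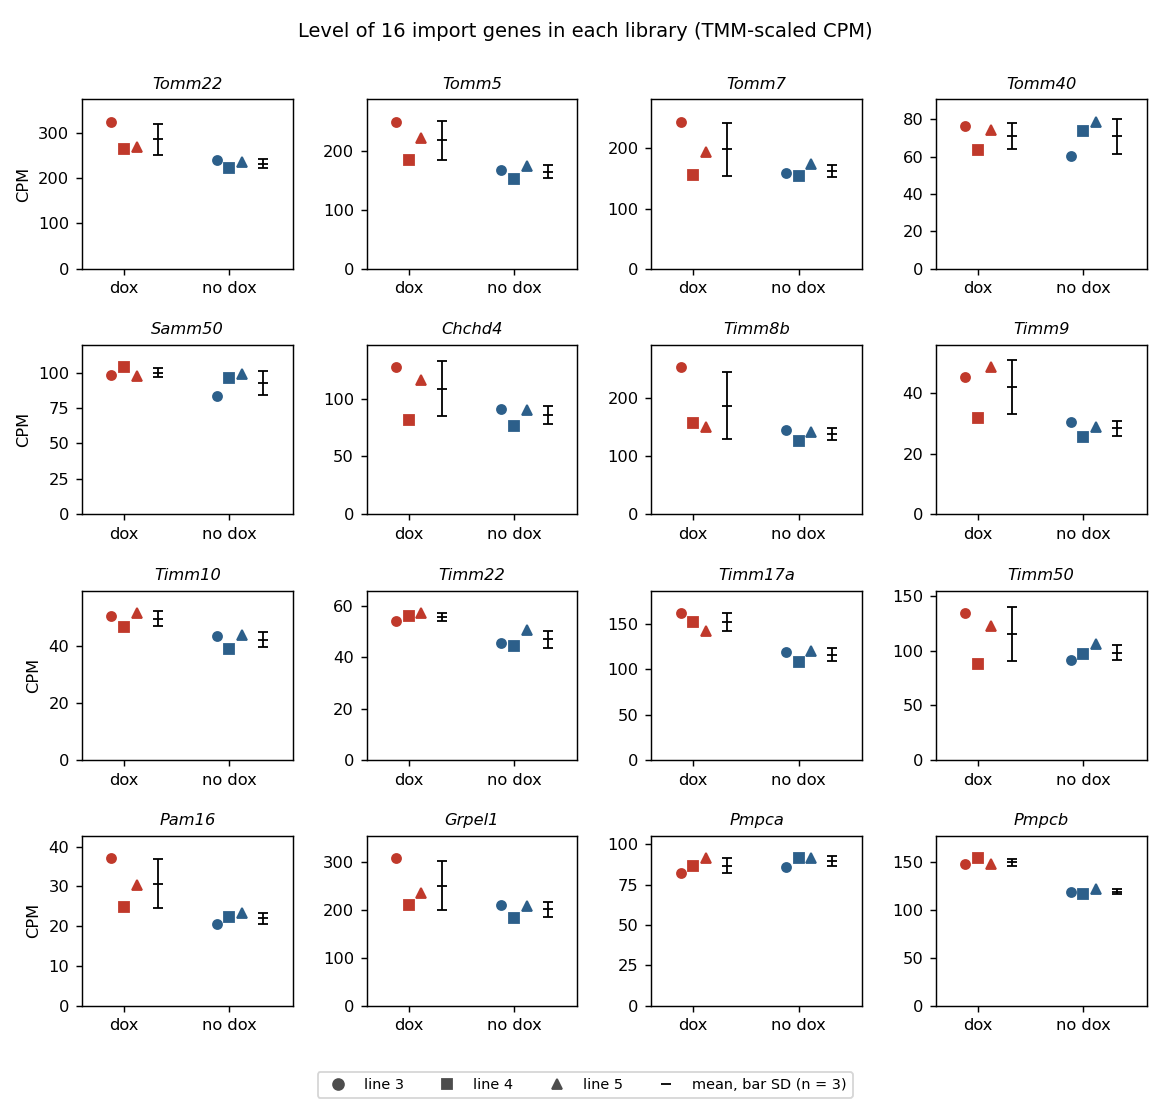
TMM-scaled CPM (vertical axes, starting at 0) of 16 import genes in each library, with doxycycline (red) left of without (blue), symbols giving the line, and black bars giving the mean and SD of 3 libraries. Timm9, Timm17a, Pam16, Tomm5 and Pmpcb have all red points above all blue points, whereas those of Tomm40, Samm50 and Pmpca intermix.

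At the inner membrane, the carrier translocase gene Timm22 was at 54.1, 55.8 and 57.3 CPM in treated lines 3, 4 and 5, against 45.6, 44.4 and 50.7 CPM in untreated lines. With TMM scaling all treated libraries were higher (log2 fold change 0.25, SE 0.12, adjusted p = 0.334 by edgeR). With total counts its groups overlapped, at 48.5, 61.8 and 59.4 CPM with doxycycline against 44.3, 44.9 and 50.1 CPM without, which makes it the gene lost between the 13 and the 12. Its partner Timm29 had -0.02 (SE 0.12). In the TIM23 complex, Timm17a, which forms the presequence translocase with Timm23, had the smallest p of the 35 genes. It was at 162, 153 and 143 CPM with doxycycline, against 119, 107 and 121 CPM without. These groups were well apart, the value lying higher in each line (0.40, SE 0.12, adjusted p = 0.133 by edgeR). Timm50, the receptor of the complex, was at 135, 87.7 and 123 CPM with doxycycline, against 91.9, 96.8 and 106 CPM without. Here the treated library of line 4 was below all untreated ones while lines 3 and 5 were above them (0.23, SE 0.16). Without the treated library of line 3 the value was 0.11, and without that of line 4 it was 0.39. Timm23, Timm17b and Timm21 had log2 fold changes of 0.18, 0.16 and 0.08, all with overlap.

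In the import motor, Pam16, which regulates the J-protein that activates Hspa9, was at 37.1, 24.7 and 30.4 CPM in treated lines 3, 4 and 5, against 20.4, 22.4 and 23.2 CPM in untreated lines. The treated libraries were all higher (log2 fold change 0.48, SE 0.16, adjusted p = 0.179 by edgeR; log2 fold change 0.28 without both libraries of line 3), and 18.7% of its exonic bases are shared with Glis2. Dnajc15, a J-protein of the motor, was at 27.4, 27.1 and 27.4 CPM with doxycycline, against 24.3, 21.2 and 24.4 CPM without. The treated values lie above all untreated ones (0.23, SE 0.13), and nearly coincide under TMM but not with total counts, where they were 24.6, 29.96 and 28.5 CPM. The nucleotide exchange factors Grpel1 and Grpel2 had 0.32 (SE 0.16) and 0.28 (SE 0.17), the J-protein Dnajc19 had 0.16 (SE 0.15), and the scaffold Timm44 had 0.00 (SE 0.12), all with overlap.

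The presequence peptidase had unlike values in its subunits. The catalytic subunit Pmpcb was at 148, 154 and 148 CPM in treated lines 3, 4 and 5, against 119, 117 and 122 CPM in untreated lines. The groups did not overlap, with treated values closer to one another under TMM than with total counts, where they were 132, 171 and 153 CPM (log2 fold change 0.33, SE 0.11, adjusted p = 0.169 by edgeR). The substrate-binding subunit Pmpca was at 82.0, 86.9 and 91.3 CPM with doxycycline, against 85.9, 91.4 and 91.3 CPM without, with overlap (-0.05, SE 0.11, 20.4% of exonic bases shared with Inpp5e). Timmdc1, which carries the prefix but is known as an assembly factor of respiratory complex I, was at 32, 24 and 29.2 CPM with doxycycline, against 27.8, 24.1 and 26.2 CPM without (0.12, SE 0.15), with overlap.

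Compared per length, as RPKM (CPM per kilobase of a gene's merged exons), the machinery spans a wide range of levels. The small TIM chaperone Timm8b and the small TOM subunits Tomm5 and Tomm7 are at the top. The small TIM chaperones as a class are not, since Timm9, Timm8a1 and Timm10b ranked 31, 32 and 35 of the 35. Timm8b averaged 362 ± 111 RPKM with doxycycline and 267 ± 19.8 RPKM without (SD, n = 3 each), followed by Tomm5 at 253 ± 38.2 RPKM with doxycycline and 191 ± 13 RPKM without. Tomm7, Tomm22 and Timm13 came next at 176, 173 and 99.5 RPKM with doxycycline and 144, 141 and 83.9 RPKM without. Tomm7 and Tomm22 do not differ beyond their spread. The lowest tested genes were Dnajc15 at 4.19 RPKM with doxycycline and 3.58 RPKM without, Tomm40l at 3.00 RPKM with doxycycline and 3.31 RPKM without, and Timm10b at 2.68 RPKM with doxycycline and 2.10 RPKM without.

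**Figure D3:**
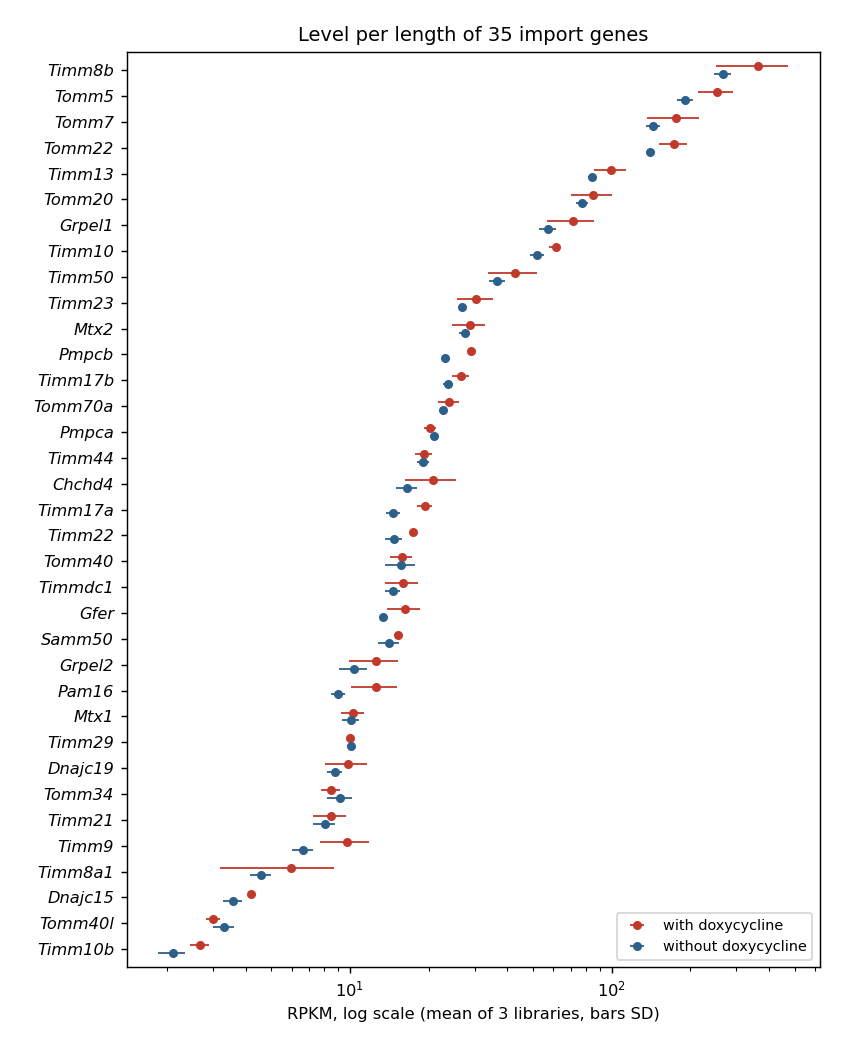
Mean level per length (RPKM, logarithmic axis, bars SD over 3 libraries) of the 35 tested import genes with doxycycline (red) and without (blue). Timm8b is highest, at 362 RPKM with doxycycline and 267 RPKM without, and Timm10b lowest, at 2.68 RPKM with doxycycline and 2.10 RPKM without, so the span of levels between genes is far wider than the distance between conditions.

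Several import genes come in pairs of related or partner proteins, and the balance within a pair does not depend on library scaling. The pairs were looked at with the values known and were not tested. Timm17a made up 42.3%, 41.5% and 42.6% of the summed RPKM of Timm17a and Timm17b in treated lines 3, 4 and 5, against 38.8%, 37.5% and 38.4% in untreated lines. Pmpca made up 39.99%, 40.4% and 42.6% of the summed RPKM of the peptidase with doxycycline, against 46.5%, 48.5% and 47.3% without. In both pairs the groups did not overlap, with Timm17a taking a higher and Pmpca a lower share in the treated cells. By contrast the balance of Grpel1 and Grpel2 overlapped between conditions, Grpel1 taking 84.9% ± 0.399 with doxycycline and 84.6% ± 0.721 without (SD, n = 3 each). The shares of Dnajc15 over Dnajc19, Tomm40 over Tomm40l, Timm8a1 over Timm8b and Mtx1 over Mtx2 also overlapped. How often the shares of gene pairs at large do not overlap was not measured. Of all single genes tested, 11.3% were higher and 11.2% lower without overlap. The lack of overlap in the Timm17a and Pmpca shares therefore cannot be called unusual.

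**Figure D4:**
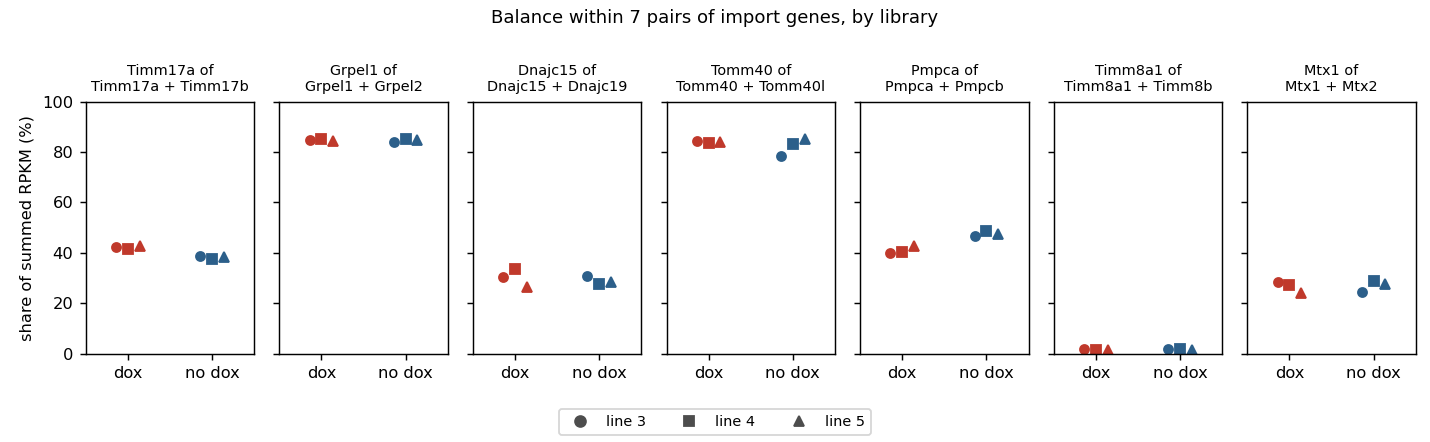
Share of the first gene in the summed RPKM of 7 pairs of related import genes (percent, vertical axis), per library, with doxycycline (red) left of without (blue). The Timm17a and Pmpca shares do not overlap between the conditions, and the other 5 pairs overlap. Timm17a has 41.5% to 42.6% with doxycycline against 37.5% to 38.8% without. How often gene pairs at large do not overlap was not measured.

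Within lines, most import genes were higher in the treated library, by an amount that varied between lines. The median ratio of treated to untreated CPM over the 35 genes was 1.24 in line 3, 1.05 in line 4 and 1.12 in line 5. A ratio above 1 was found for 31, 22 and 27 of the 35 genes in lines 3, 4 and 5, where 50%, 49.3% and 48.8% of all genes had one. In all 3 lines together it was found for 18 genes (19.1% of all genes). This order of the lines depends on the scaling, because TMM gave the treated libraries of lines 3 and 4 effective sizes of 21844094 and 30273745, apart from their totals of 24391198 and 27341036. With total counts alone the median log2 ratios were 0.20, 0.20 and 0.23 in lines 3, 4 and 5, and those of all genes -0.10, 0.11 and 0.06. A test of differences between the lines irrespective of treatment called 0 of the 35 genes and 0% of all genes, and Grpel2 alone had an unadjusted p under 0.05 (edgeR, 0.0386), as did 4.59% of all genes. Whether the treatment acted differently by line was not tested, since each line has 1 library per condition.

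**Figure D5:**
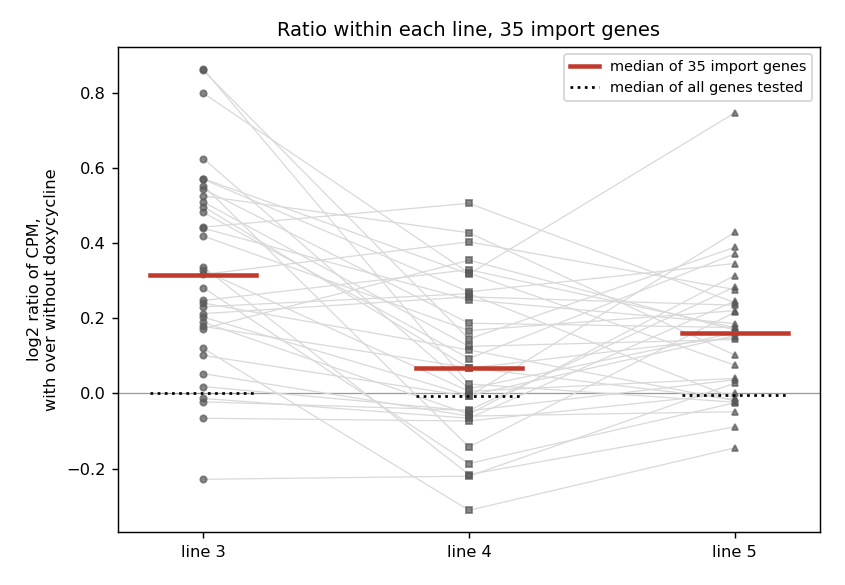
Log2 ratio of TMM-scaled CPM with over without doxycycline (vertical axis) in lines 3, 4 and 5 for the 35 tested import genes, each gene joined by a grey line, with red bars at their median and dotted bars at the median of all genes tested. The red bars lie at 0.32, 0.07 and 0.16 in lines 3, 4 and 5, and the dotted bars near 0.

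Transcript length moved with the result. Across the 35 genes, log2 fold change and log2 transcript length had r = -0.28, against -0.08 across all genes. By rank (Spearman) the values were closer, at -0.23 and -0.18. Both are descriptions over genes that share the same 6 libraries. The 7 import genes with transcripts under 1500 bases had a median log2 fold change of 0.29, and all 2642 such genes 0.13. The other 28 import genes had 0.16, and all 11849 longer genes -0.02. With offsets for length and GC content in the fit, the import genes had a median of 0.18 with 30 of 35 above 0, 9 had an unadjusted p under 0.05 and were higher (8.6% of all genes), and 0 passed the adjusted test. Under those offsets the log2 fold change of Tomm5 was 0.21, of Tomm22 0.15, of Timm8b 0.27 and of Tomm7 0.07. Timm17a kept 0.40, Pmpcb 0.30 and Pam16 0.45. Other values rose, such as Timm50 to 0.32, Timm13 to 0.31, Samm50 to 0.24 and Mtx1 to 0.18. Of the 9 genes, Samm50, Gfer, Timm13, Timm22 and Timm50 were new against the fit without offsets. Tomm22, Tomm5 and Timm8b dropped out.

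Partners of the machinery outside these 38 genes were measured in the same fit. Of 23 tested partners (inner membrane peptidases, organising proteins of the cristae and others), 0 passed the test (2.28% of all genes) and 16 lay above 0 (50.4% of all genes), with a median log2 fold change of 0.13. At an unadjusted p under 0.05 (edgeR), 4 were higher (8.33% of all genes) and 0 lower (7.96%). Apoo, a subunit of the cristae-organising MICOS complex, was at 9.93, 8.52 and 9.80 CPM with doxycycline, against 6.31, 4.82 and 5.68 CPM without (0.75, SE 0.19, adjusted p = 0.080 by edgeR). Its treated libraries were all higher, and it had the smallest p of the partners. Next by p were the MICOS subunit Minos1 (0.41, SE 0.12), the inner membrane peptidase Immp1l (0.50, SE 0.17) and the MICOS subunit Chchd6 (0.31, SE 0.14). Other listed MICOS subunits were not higher beyond their SE. Immt had 0.05 (SE 0.13), Apool -0.09 (SE 0.14) and Chchd3 -0.61 (SE 0.65), the last low only in the treated library of line 5. The motor chaperone Hspa9 itself had 0.02 (SE 0.15). DESeq2 called 2 of the 23 partners, both higher (4.95% of all genes in either direction). When the treated library of line 3 was left out, edgeR called 4, with 3 higher and 1 lower (10.4% of all genes).

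Further listed mitochondrial chaperones, proteases and prohibitins had a median log2 fold change of 0.06 over 15 tested genes. Of these, 10 were above 0 (50.4% of all genes) and 0 passed the test (2.28%). At an unadjusted p under 0.05 by edgeR, 3 were higher (8.33% of all genes) and 0 lower (7.96%). The rhomboid protease Parl had 0.47 (SE 0.13), the prohibitin Phb 0.50 (SE 0.14), the co-chaperonin Hspe1 0.44 (SE 0.15), and the protease Lonp1 -0.29 (SE 0.14). With length and GC offsets Phb passed (0.57, adjusted p = 0.0427 by edgeR, where 2.11% of all genes passed).

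Markers of other cells moved with the same contrast. The summed level of 20 macrophage markers was 221 to 483 CPM with doxycycline and 66.4 to 67.3 CPM without. Of the 20, 15 were called higher (0.963% of all genes). Not called were Cd14, Laptm5 and Cd74, with log2 fold changes below 0, and Cd68 and Fcgr3. The summed level of 18 markers of T and NK lymphocytes was 2.56 to 5.54 CPM with doxycycline and 23.8 to 32.3 CPM without. Of the 16 tested, 14 were called lower (1.32% of all genes), and Lck and Cd28 were not. Cd3d, Cd8b1, Nkg7, Gzma and Prf1 were at 0 in every treated library. In the untreated libraries they were low too, at 0.12 to 1.88 CPM, and Prf1 was not tested. The 7 epithelial markers summed to 11838 to 16529 CPM with doxycycline and 15428 to 17753 CPM without, with 0 called, and the B lymphocyte (7) and fibroblast (7) markers stayed under 7 CPM in every library. In bulk RNA a different mix of cells and a different RNA content per cell cannot be told apart, and the part of these markers in the import values was not tested. With the macrophage and lymphocyte genes left out of the fit, the import genes again had 0 calls (1.96% of all genes) and a median of 0.23. That fit keeps the import genes' own counts, so it cannot show what other cells added to them.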

How the data were processed

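RNA of 6 libraries was sequenced and the authors deposited raw read counts per gene for each. The submitters' processing notes list R 3.3.0 and build mm10, together with the tools STAR, HTSeq, CASAVA, Picard, bedtools and DESeq2. No annotation release or strand setting was given in the sources used here. Shared bases are therefore given for the genes with larger overlaps. Besides those named above, Timm8b shares 15.6% of its exonic bases with Nkapd1, and Grpel1 shares 11.6% with Tada2b. Smaller shares in other genes are not all listed. The 5 rows that name no gene held 43.7% to 47.7% of reads and were left out. Identifiers were paired with symbols and coordinates from GENCODE M21 (48144 of 48526).

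Libraries were grouped by their doxycycline label. edgeR 4.0.16 (R 4.3.3; filterByExpr, TMM, quasi-likelihood test, Benjamini-Hochberg adjustment over all 14531 genes, threshold 0.05) compared the 3 treated with the 3 untreated libraries. The biological coefficient of variation was 18.0%. CPM use TMM library sizes, and 3 counts, the limit a count of 0 allows, equal at most 0.137 CPM, for counting error only. Intervals of within-line ratios are 95% exact counting intervals, which leave out the spread between libraries. Library pairs within a group differed beyond sampling noise (chi-square per degree of freedom 35.8 to 108 with doxycycline and 7.86 to 22.6 without). Libraries of one number come from the same stable line, and their deviations from the group means correlated at 0.043, 0.096 and 0.027 in lines 3, 4 and 5.

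Alternatives were RLE factors, total counts, no filter, the line as a block, each library or line left out, offsets for length and GC content (splines of 5 degrees of freedom, both known for 99.7% of tested genes), marker genes left out, DESeq2 1.42.0 and limma-voom (limma 3.58.1). The scripts' fits were tested on simulated data. Values in every library were given for the gene of smallest p in each role, the 5 highest and 3 lowest by RPKM, and those with opposite ratios in lines, and fold changes for the 4 of smallest p in each partner list. Genes described beyond that rule (Pmpca, Timm8a1, Hspa9, Immt, Apool, Chchd3 and the pairs) were added with their values known. The members and the lists were chosen with earlier results of these data known.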

Additional observations from a re-analysis of the deposited data

Results flagged for a closer look

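In 3 import genes, the treated library was higher in one line and lower in another, with 95% exact counting intervals on both sides of a ratio of 1. These intervals hold counting error only, and libraries within a group differed by more than that. The log2 ratio of Tomm40 with against without doxycycline was 0.336 in line 3, -0.215 in line 4 and -0.0890 in line 5. For Mtx1 the log2 ratios were 0.281, -0.186 and -0.0247 in lines 3, 4 and 5. Timm50 had 0.553, -0.142 and 0.216. The difference between lines was not tested, since each line has 1 library per condition. With total counts in place of TMM scaling, none of the 3 had such opposite ratios, while Mtx2 had them, with ratios of 0.914, 1.05 and 1.25 in lines 3, 4 and 5.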

How the results depend on the processing

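The import genes called numbered 0 under most alternatives, with the replicate block (the line as a block; 243 genes called in all, against 332) among them, and 1, Timm9, with no filter or without the treated library of line 4 (0 to 1 over the libraries and lines left out). Their median log2 fold change was 0.23 with the block, 0.13 to 0.28 with a library or line left out and 0.18 with length and GC offsets, and the number above 0 was 27 to 32. Partners called numbered 2 with no filter (1 higher and 1 lower) and 2 by DESeq2 (both higher), and 0 to 4 with a library or line left out. Chaperones, proteases and prohibitins called numbered 1 with no filter, 1 with offsets and 1 with offsets and the block. DESeq2 called 2 of them, and 0 to 1 were called with a library or line left out. Tomm40 changed sign with no filter (-0.0064) and with libraries or a line left out (-0.14 to 0.11), and Mtx1 with libraries or a line left out (-0.10 to 0.12). Total counts as library sizes, the median by DESeq2 and limma-voom, the alternatives of the count above 0 and of the chaperone count, and the leave-one-out test between lines were chosen after seeing the data. Calls over all genes ranged from 62 without line 4 to 1551 without the treated library of line 3. Tomm6, Tomm20l and Timm8a2 had 0 to 3 counts in each library, too few for a comparison. Since 84.2% of the exonic bases of Tomm6 are shared with other genes, its expression level cannot be read from its counts.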

Other observations

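Among the listed partners, chaperones, proteases and prohibitins, 2 genes stood apart in a single treated library, that of line 5. They were picked out with their values known. Chchd3, a core subunit of the cristae-organising MICOS complex, was at 112, 93.2 and 6.85 CPM with doxycycline in lines 3, 4 and 5, against 111, 104 and 109 CPM without. Line 5 thus kept 6.27% of its untreated level (95% exact counting interval of the ratio 0.0536 to 0.0729), the lowest ratio in that line among 10197 genes with a mean of at least 5 CPM. Phb2, a prohibitin of the inner membrane, was at 581, 474 and 140 CPM with doxycycline, against 474, 489 and 496 CPM without. In line 5 it kept 28.2% (interval of the ratio 0.271 to 0.292). The hairpin differs between the lines, and with 1 library per line and condition the difference was not tested.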
